A study of Mus musculus with 16 samples.

Results

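Collagen, elastic fibre and matricellular genes of the mouse aorta were followed across diabetes and treatment with ruboxistaurin (RBX), an inhibitor of protein kinase C beta. The set was a list of 41 gene symbols: collagen chains, elastic fibre proteins, lysyl oxidases, and the adhesive glycoproteins, matricellular proteins and proteoglycans around them. A member was measured by the array's probe sets whose annotation gave that symbol and no other, which held for 38 of the 41. Of these, 37 lay above the minimum signal and were tested among 11042 genes, from 18193 symbols on the array. Col8a2, a chain of type VIII collagen, fell below that minimum. Its mean signal (± SD, n = 4) was 312 ± 59.9 without diabetes or RBX, 599 ± 281 with RBX alone, 317 ± 75.1 with diabetes alone and 406 ± 57.8 with both. The probe sets of Loxl2, a lysyl oxidase, carried several symbols, and the microfibril protein Fbn1 and the fibulin Efemp2 had no probe set named here, so these 3 members were not analysed.

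Fibril-forming collagens (types I, III and V) give the artery wall its tensile strength, and elastic fibres of elastin on a microfibril scaffold give it recoil. Lysyl oxidases join both into insoluble networks by oxidising lysine side chains. Basement membrane collagens form the sheets under the endothelium and around each smooth muscle cell. Matricellular proteins such as tenascin C and periostin bind to this scaffold and to cells, and are known to be deposited in injured and atherosclerotic vessels. Smooth muscle cells and adventitial fibroblasts are the main known producers of these proteins in the aorta.

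Whole aorta was taken from 16 individual mice 18 weeks old, 4 per group, and each was hybridised to its own Affymetrix array. All mice lacked apolipoprotein E (ApoE-/-), the controls included, and all ate a high fat diet from 8 to 18 weeks of age. The first group, called non-diabetic here, received neither streptozotocin nor RBX, and the second, non-diabetic RBX, ate the same diet with RBX mixed in. The other 2 groups, diabetic and diabetic RBX, were made diabetic with streptozotocin (STZ) at 6 weeks of age and ate the diet without and with RBX. The sex of the mice, the dose of RBX and any vehicle given to non-diabetic mice are not given in the sources used here. Per the labels the mice of a group are biological replicates, so the error of each comparison is the spread between mice. In whole tissue, fewer cells of a type and less RNA per cell cannot be told apart.

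The signals were linear. Each array had been scaled to the same trimmed mean of 1500.01, so a level is a share of the array's average signal. Levels of different genes are set side by side only as array signal, in a ranking by brightness and in sums of markers. Rank correlations between the arrays ran from 0.857 to 0.942 and no arrays were identical. On the first principal component the non-diabetic RBX arrays scored 21.70 to 51.89, apart from all others at -28.87 to 4.28. They were also the highest on the cre hybridisation control, given beside the results below. All 10 smooth muscle markers of a list were measured in this tissue, labelled as aorta.

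Promoter sequences were read for 3 members whose changes frame the results, Tnc and Postn, which were lower in non-diabetic RBX mice, and Fmod, which was higher. Each line gives the 250 bases before the annotated start, 5′ to 3′ on the gene's strand, from RefSeq (GRCm38.p6). The Tnc promoter lies at chr4:64047016-64047265 on the minus strand, that of Postn at chr3:54359017-54359266 on the plus strand and that of Fmod at chr1:134037004-134037253 on the plus strand. Capitals mark matches to the motifs searched.
Tnc: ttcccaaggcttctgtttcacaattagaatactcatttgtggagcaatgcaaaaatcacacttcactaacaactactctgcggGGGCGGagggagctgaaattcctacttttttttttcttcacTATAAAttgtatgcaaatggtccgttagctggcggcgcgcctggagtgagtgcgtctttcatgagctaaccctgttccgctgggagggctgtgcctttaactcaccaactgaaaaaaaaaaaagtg
Postn: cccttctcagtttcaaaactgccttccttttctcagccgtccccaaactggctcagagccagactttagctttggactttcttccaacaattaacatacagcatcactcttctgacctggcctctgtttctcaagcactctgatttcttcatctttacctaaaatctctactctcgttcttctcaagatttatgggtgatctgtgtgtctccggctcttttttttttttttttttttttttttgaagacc
Fmod: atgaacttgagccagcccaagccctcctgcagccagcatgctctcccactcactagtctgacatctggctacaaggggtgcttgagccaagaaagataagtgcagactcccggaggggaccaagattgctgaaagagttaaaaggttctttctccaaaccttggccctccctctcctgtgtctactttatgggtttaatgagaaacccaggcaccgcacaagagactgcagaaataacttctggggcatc
The capitals in the Tnc promoter are a GC box (GGGCGG) and a TATA box (TATAAA), and no motif searched was found in the other 2 sequences. Over both strands, TATAAA was present in 13.0% of 27025 promoters of the same length and in 3 of the 29 members with a promoter in the table, Col3a1, Thbs2 and Tnc. GGGCGG was present in 33.0% of all promoters and in 17 of the 29 members. The MCAT element GGAATG was present in 12.6% of all promoters and in 2 members (Col3a1 and Mfap2), and the AP-1 site TGANTCA in 6.85% and in 1 member (Col6a1). The CArG box, the known binding motif of serum response factor, was found in 1.41% of all promoters and in none of the 29. These are matches of letters and were not tested against the expression values.

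RBX in non-diabetic mice was the comparison in which these genes changed most often. Of the 37 members tested, 13 passed an adjusted p of 0.05 (35.1%), against 31.6% of all genes tested. The 9 that fell (24.3%, against 15.1% of all genes) were the matricellular and proteoglycan genes Vcan, Tnc and Postn, the cross-linking enzymes Lox and Loxl3, the basement membrane chains Col4a5, Col18a1 and Col4a2, and Col6a3. The 4 that rose (against 16.5% of all genes) were Fmod, Col16a1, Col1a2 and Col4a1. The median log2 difference over the 37 members was -0.21, with 24 of them below 0. Over all genes tested it was 0.03, and 53.2% of these genes were above 0. After quantile normalization of the arrays 17 members passed, against 30.0% of all genes in that setting. Of these 17, 2 were higher and 15 lower, so the balance of rises and falls depended on the scaling. The values of the 4 non-diabetic RBX mice did not overlap those of the 4 non-diabetic mice for 10 of the 37 members, against 27.5% of all genes.

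In mice without RBX, diabetes changed none of the members past the threshold: 0 of 37 passed in limma (against 0.652% of all genes), and 6 had an unadjusted p under 0.05, against 15.2% of all genes. The median difference was 0.03 over the members and 0.01 over all genes. RBX in diabetic mice likewise changed 0 of 37 in limma (against 0.0453% of all genes), with 3 at an unadjusted p under 0.05 (against 9.18%). Between diabetic RBX and non-diabetic RBX mice, Vcan, Postn, Col4a5, Lox and Tnc were higher in the diabetic RBX mice. They were 5 of 37 members called (13.5%), against 7.1% of all genes in either direction and 4.44% higher. This comparison uses the same 4 non-diabetic RBX arrays as that of RBX in non-diabetic mice, and these 5 genes are among the 9 that were lower in those arrays. Groups did not overlap for 4 members in diabetes without RBX (against 9.45% of all genes), 2 for RBX in diabetic mice (against 6.88%) and 5 for diabetes with RBX (against 12.5%).

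**Figure D1:**
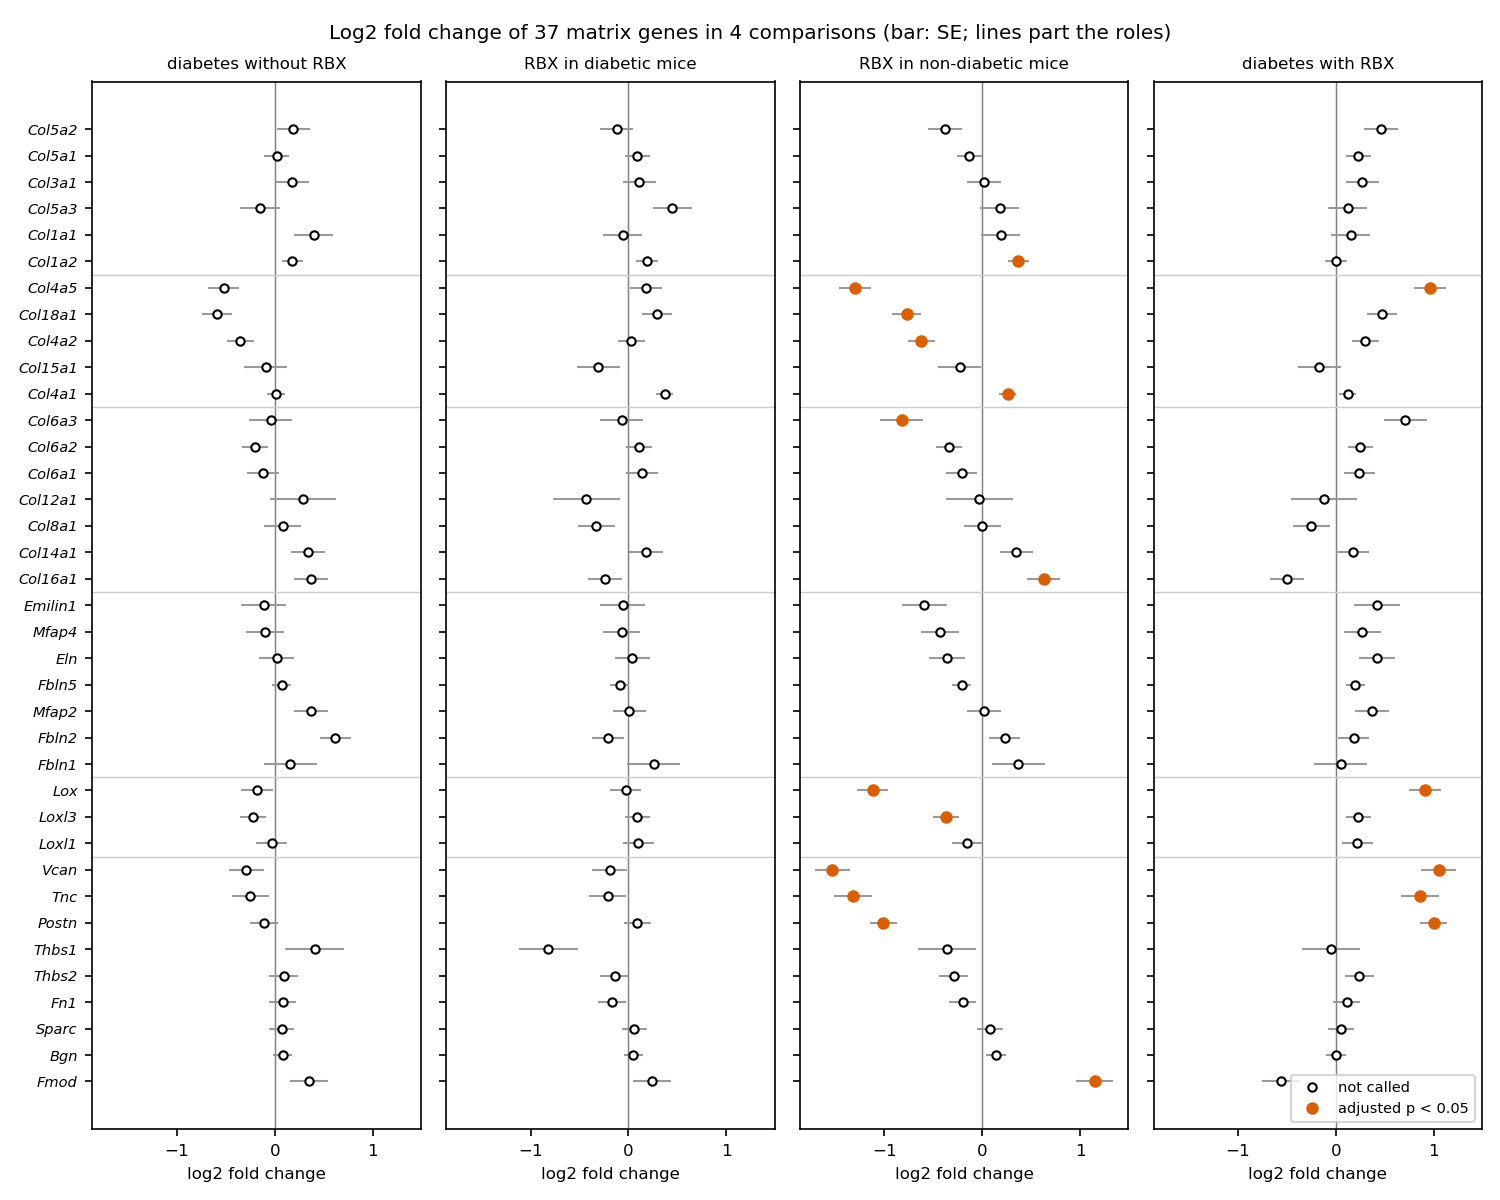
Log2 fold change of the 37 tested matrix genes in 4 comparisons (horizontal axis, log2; bar, standard error; filled points, adjusted p under 0.05), one row per gene, with grey lines between the 6 roles. Filled points appear for 13 genes under RBX in non-diabetic mice and for 5 under diabetes with RBX, and for none in the other panels.

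The interaction asks whether the effect of RBX differed between diabetic and non-diabetic mice. It passed for 9 of the 37 members (24.3%), against 11.5% of all genes. In 7 of them, Col4a5, Vcan, Tnc, Postn, Lox, Col18a1 and Col4a2, the change under RBX was more positive in diabetic mice (against 6.02% of all genes), and in 2, Fmod and Col16a1, more negative (against 5.5%). All of these 9 are among the 13 called for RBX in non-diabetic mice, whose arrays both tests share.

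Among the matricellular proteins and proteoglycans, Vcan, Tnc and Postn fell with RBX in non-diabetic mice, by 2.02-fold to 2.89-fold, while Fmod rose 2.22-fold. Versican, encoded by Vcan, is a large chondroitin sulfate proteoglycan of the intima known to bind lipoproteins. The array signal of Vcan in the 4 non-diabetic mice was 9331, 9058, 9176 and 13012.5, and that of the non-diabetic RBX mice was 3080, 4881, 3924 and 2440. It was 10042, 8415, 6533 and 8137 in the diabetic and 7292.5, 7442, 7898 and 6126 in the diabetic RBX mice. Each of the non-diabetic RBX mice lay below all of the other 12 mice, and the diabetic mice overlapped both the non-diabetic and the diabetic RBX mice. With RBX in non-diabetic mice Vcan fell 2.89-fold (log2 fold change -1.53 ± 0.18, SE, adjusted p = 1.21e-05), and between the RBX groups it was 2.07-fold higher with diabetes (1.05 ± 0.18, adjusted p = 0.00221).

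Periostin (Postn) is a matricellular protein that binds type I collagen and promotes its cross-linking. The non-diabetic mice had signals of 93323, 96810, 107969 and 107332, and the non-diabetic RBX mice 47887, 61294.5, 53842 and 40032. It was 92095, 109207, 78919 and 97887.5 in the diabetic and 107230, 105155, 116853 and 76096 in the diabetic RBX mice. Again the 4 non-diabetic RBX mice were lowest and did not overlap any other group. The fall was 2.02-fold (-1.01 ± 0.14, adjusted p = 5.81e-05), and the diabetic RBX mice were 2.0-fold above the non-diabetic RBX mice (1.0 ± 0.14, adjusted p = 0.000653).

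Tnc and Fmod were called as well and are described although they fall outside the rule for genes given mouse by mouse. Tenascin C (Tnc), an anti-adhesive matricellular protein, had a mean signal (± SD, n = 4) of 12161 ± 2461 in non-diabetic and 4818 ± 710 in non-diabetic RBX mice. The means of the diabetic and diabetic RBX mice were 10317 ± 2873 and 8776 ± 1661. It fell 2.51-fold with RBX in non-diabetic mice (-1.32 ± 0.19, adjusted p = 6.13e-05) and was 1.81-fold higher in diabetic RBX than in non-diabetic RBX mice (0.86 ± 0.19, adjusted p = 0.0095). Fibromodulin (Fmod), a small leucine-rich proteoglycan that binds collagen fibrils, moved the other way. Its mean was 11033 ± 989 in non-diabetic and 25405 ± 7799 in non-diabetic RBX mice, with no overlap, and 14301 ± 3112 and 16801 ± 3102 in diabetic and diabetic RBX mice. The rise was 2.22-fold (1.15 ± 0.19, adjusted p = 0.000266). The interaction of Fmod (-0.91 ± 0.27, adjusted p = 0.0373) lost its call when any 1 of 9 of the 16 arrays was left out: non-diabetic 2, 3 or 4, non-diabetic RBX 1 or 4, diabetic 1 or 2, or diabetic RBX 1 or 3 (adjusted p from 0.0512 to 0.0829). The other members of this role were the adhesive glycoprotein fibronectin (Fn1), the thrombospondins Thbs1 and Thbs2, the collagen-binding Sparc and the proteoglycan biglycan (Bgn). On the brightest probe set of each, none was called in any comparison in the equally weighted fit of all 16 arrays as deposited. In non-diabetic mice their log2 differences under RBX ran from -0.36 (Thbs1) to 0.14 (Bgn). After quantile normalization Fn1 (-0.61 ± 0.12, adjusted p = 0.00126), Sparc (-0.45 ± 0.11, adjusted p = 0.00509) and Bgn (-0.42 ± 0.10, adjusted p = 0.00435) were called lower there, and in RBX averaged too. Sparc and Bgn thereby turned direction, from 0.08 and 0.14. Thbs1 was called lower for RBX averaged in 7 alternatives, among them array weights (-0.66 ± 0.19, adjusted p = 0.0177) and the fits without non-diabetic 3, non-diabetic RBX 3, diabetic 1 or diabetic RBX 1. Fn1 was also called for RBX in non-diabetic mice without non-diabetic RBX 3 (-0.36 ± 0.12, adjusted p = 0.0391).

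**Figure D2:**
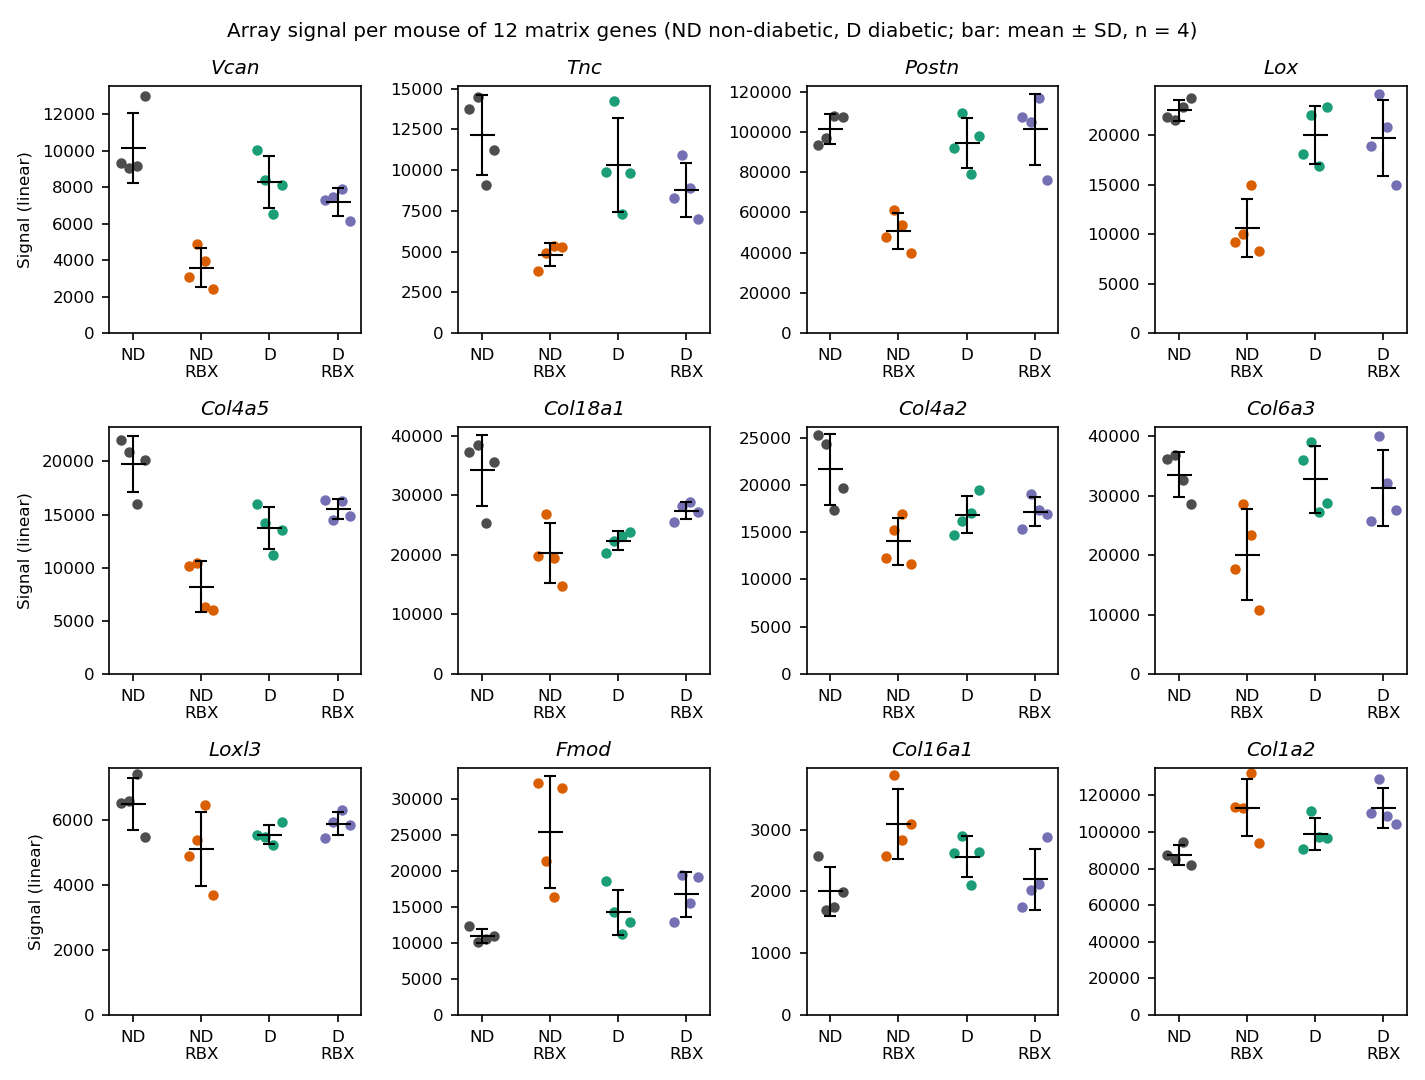
Array signal (vertical axes, linear scale from 0) of 12 matrix genes in every mouse, by group, with the mean and SD of 4 mice; ND is non-diabetic and D diabetic. In the panels of Vcan, Tnc, Postn, Lox and Col4a5 the non-diabetic RBX mice lie below every other mouse, and in that of Fmod their mean is the highest of the 4 groups.

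Of the lysyl oxidases, Lox fell 2.17-fold with RBX in non-diabetic mice, Loxl3 fell 1.29-fold, and Loxl1, which acts on elastin, was not called. For Lox the non-diabetic mice read 21789, 21543, 22881 and 23765, and the non-diabetic RBX mice 9203, 10034, 14911 and 8329. It was 18080, 22052, 16910 and 22875 in the diabetic and 18894, 24131, 20772 and 15002.5 in the diabetic RBX mice. The highest non-diabetic RBX mouse (14911) lay just under the lowest diabetic RBX mouse (15002.5), and the other 3 groups overlapped. The log2 fold change of Lox was -1.12 ± 0.16 (adjusted p = 7.39e-05), and the gene was 1.88-fold higher in diabetic RBX than in non-diabetic RBX mice (0.91 ± 0.16, adjusted p = 0.00268). Loxl3 read 6494, 6578, 7398.5 and 5470 in the non-diabetic and 4880, 5366, 6443 and 3699.5 in the non-diabetic RBX mice, which overlap. It read 5537, 5476, 5208 and 5916 in the diabetic and 5449, 5933, 6294 and 5840 in the diabetic RBX mice. Its fall (-0.37 ± 0.13, adjusted p = 0.0423) was near the threshold. That call was lost without non-diabetic 1, 2 or 3, non-diabetic RBX 1 or 4, diabetic 2, or diabetic RBX 2 or 3, at an adjusted p of 0.05 to 0.155. It was also lost after quantile normalization (-0.3 ± 0.13, adjusted p = 0.0892), without the filter, without the intensity trend and in a fit of the 2 groups alone. With the dimmest probe sets and with either array-control covariate it was lost too, so 15 of 31 alternatives lost it.

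The basement membrane collagens split by chain. Col4a5, Col18a1 and Col4a2 fell with RBX in non-diabetic mice, Col4a1 rose slightly, and Col15a1, a multiplexin of the basement membrane zone, was not called (-0.23 ± 0.22). Col4a5 encodes a minor type IV chain. It read 22036, 20909, 15985 and 20170 in the non-diabetic and 10123, 10434, 6324 and 5992.5 in the non-diabetic RBX mice. It was 16038, 14231, 11222.5 and 13589 in the diabetic and 16408.5, 14519, 16272 and 14843 in the diabetic RBX mice. The non-diabetic RBX mice were below all others, and the diabetic mice lay mostly between them and the non-diabetic mice. The fall was 2.47-fold (-1.30 ± 0.16, adjusted p = 2.28e-05), the diabetic RBX mice were 1.95-fold above the non-diabetic RBX mice (0.96 ± 0.16, adjusted p = 0.00216), and the interaction was 1.48 ± 0.23 (adjusted p = 0.000702).

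Col18a1 encodes the multiplexin from which endostatin is cleaved. It read 37328.5, 38551, 25354 and 35582 in the non-diabetic and 19818, 26955, 19551 and 14836 in the non-diabetic RBX mice. It read 20273, 22373, 23236 and 23823 in the diabetic and 25582.5, 28153, 28910 and 27209 in the diabetic RBX mice. One non-diabetic mouse overlapped the non-diabetic RBX group, and all 4 non-diabetic mice lay above all 4 diabetic mice. The fall under RBX in non-diabetic mice was 1.70-fold (-0.77 ± 0.15, adjusted p = 0.000861). The difference of diabetic from non-diabetic mice without RBX was -0.59 ± 0.15 and missed the threshold (adjusted p = 0.0649). It passed without non-diabetic 3 (adjusted p = 0.0105), non-diabetic RBX 2 (adjusted p = 0.0337) or non-diabetic RBX 4 (adjusted p = 0.0244).

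Col4a1 and Col4a2 encode the major type IV chains, which assemble into the same molecule, and neighbour each other in the genome with opposite directions of transcription. Both were called with opposite signs; they are described outside the rule for genes given mouse by mouse. Col4a2 had a mean signal of 21650 ± 3785 in non-diabetic and 14038 ± 2486 in non-diabetic RBX mice, a fall of 1.54-fold (-0.62 ± 0.14, adjusted p = 0.00216), and 16869 ± 1986 and 17177 ± 1526 in diabetic and diabetic RBX mice. Its interaction (0.65 ± 0.19, adjusted p = 0.0345) was lost without any 1 of 9 arrays: non-diabetic 1 or 2, non-diabetic RBX 1 or 4, diabetic 1, 2 or 3, or diabetic RBX 2 or 3 (adjusted p from 0.0544 to 0.077). Col4a1 had means of 56422 ± 1538, 68101 ± 7670, 56872 ± 3198 and 73750.5 ± 7392 in the order non-diabetic, non-diabetic RBX, diabetic and diabetic RBX, so the means of both RBX groups lay above those of both groups without it. The rise in non-diabetic mice was 1.20-fold (0.26 ± 0.09, adjusted p = 0.0391) and was lost without any 1 of the 4 non-diabetic mice or without non-diabetic RBX 2 or 3 (adjusted p from 0.0568 to 0.115), and after quantile normalization it was 0.01 ± 0.08. In diabetic mice the difference was 0.37 ± 0.09, with no overlap, and did not pass (adjusted p = 0.211). A second probe set of Col4a1 moved the other way, as described below.

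Of the fibril-forming collagens, which make up most of the wall's collagen, 1 of 6 was called. Col1a2, a chain of type I collagen, read 87512, 85242.5, 94473 and 81748 in the non-diabetic and 113685, 112877, 132366 and 94189 in the non-diabetic RBX mice. It read 90624.5, 111180, 97106 and 96661.5 in the diabetic and 110081, 128958.5, 108468 and 104164.5 in the diabetic RBX mice. One non-diabetic RBX mouse overlapped the non-diabetic group. The rise was 1.29-fold (0.37 ± 0.11, adjusted p = 0.0136), but it was -0.03 after quantile normalization and -0.06 on the mean of the gene's probe sets. Col1a1, its partner chain, differed by 0.19 ± 0.20, and Col3a1, Col5a1, Col5a2 and Col5a3 by -0.38 to 0.18. On the brightest probe set of each, none of them passed in any comparison in the equally weighted fit of all arrays as deposited. After quantile normalization Col3a1 (-0.52 ± 0.13, adjusted p = 0.00571, from 0.02) and Col5a2 (-0.55 ± 0.15, adjusted p = 0.0131, from -0.38) were called lower for RBX in non-diabetic mice. Col5a2 was also called there without non-diabetic RBX 3 (-0.59 ± 0.14, adjusted p = 0.00404). Col5a1 stood at -0.13 on its brightest probe set. Its further probe sets were called lower there when tested apart (-0.73 ± 0.22, adjusted p = 0.0207, and -0.8 ± 0.2, adjusted p = 0.00546). The mean of its probe sets was called lower too (-0.55 ± 0.17, adjusted p = 0.0215).

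The microfibrillar, network-forming and fibril-associated collagens held 1 fall and 1 rise among 7 tested. Col6a3, a chain of the beaded filaments of type VI collagen, read 36099, 36858, 32664 and 28640 in the non-diabetic and 17659, 28641, 23422 and 10688 in the non-diabetic RBX mice. It read 35937, 39112, 27285 and 28807 in the diabetic and 25700, 40087, 32061 and 27588 in the diabetic RBX mice. The non-diabetic and non-diabetic RBX mice barely overlapped, and non-diabetic RBX 4 was lowest of all 16. The fall was 1.77-fold (-0.82 ± 0.22, adjusted p = 0.00912). The partner chains Col6a1 (-0.21 ± 0.16) and Col6a2 (-0.34 ± 0.13, adjusted p = 0.062) did not pass, though Col6a2 did without non-diabetic 3 (adjusted p = 0.015) or non-diabetic RBX 2 (adjusted p = 0.0395).

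Col16a1, a collagen of the fibril-associated type, read 2571, 1701, 1744.5 and 1994 in the non-diabetic and 2577, 3884, 2836 and 3087 in the non-diabetic RBX mice. It read 2630, 2890.5, 2105 and 2636 in the diabetic and 1745, 2021.5, 2124 and 2884 in the diabetic RBX mice. The first pair of groups did not overlap, by a narrow margin, and the second overlapped. The rise was 1.55-fold (0.63 ± 0.17, adjusted p = 0.00932). The interaction (-0.87 ± 0.24, adjusted p = 0.0259) was lost without non-diabetic 2, diabetic 2 or diabetic RBX 1 (adjusted p from 0.0525 to 0.0594). Col8a1, a network-forming collagen of vessels, and the fibril-associated Col12a1 and Col14a1 were not called, at 0.00 ± 0.19, -0.03 ± 0.34 and 0.35 ± 0.17. Without non-diabetic RBX 4, Col14a1 was called higher (0.58 ± 0.12, adjusted p = 0.00193).

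In the equally weighted limma fit of all 16 arrays as deposited, each gene was read on its brightest probe set. None of the 7 elastic fibre proteins tested was called there in any comparison. An unadjusted p under 0.05 was reached by 2 of the 7 for RBX in non-diabetic mice (against 42.7% of all genes) and by 2 for diabetes without RBX (against 15.2%). For RBX in non-diabetic mice elastin (Eln) differed by -0.36 ± 0.18, the microfibril-associated Mfap4 by -0.43 ± 0.19 and Mfap2 by 0.02 ± 0.17, and the elastin-microfibril interface protein Emilin1 by -0.59 ± 0.23 (adjusted p = 0.058). The fibulins Fbln1, Fbln2 and Fbln5, which help to assemble elastic fibres, differed by 0.37 ± 0.27, 0.23 ± 0.16 and -0.21 ± 0.10. In this comparison some of the 7 were called in some alternatives. The share of all genes called in any alternative is not given here. A shift in these genes alone therefore cannot be read from those calls. Eln (-0.56 ± 0.19, adjusted p = 0.034) and Fbln5 (-0.36 ± 0.10, adjusted p = 0.00929) were lower after quantile normalization. Emilin1 was lower with array weights (-0.61 ± 0.20, adjusted p = 0.0302) and without non-diabetic 3, non-diabetic RBX 1 or non-diabetic RBX 2 (adjusted p from 0.0265 to 0.0385), and Mfap4 without non-diabetic RBX 1 (adjusted p = 0.0303). Fbln1 was higher without non-diabetic RBX 4 (0.73 ± 0.20, adjusted p = 0.0108). The member with the smallest unadjusted p was Fbln2, in diabetes without RBX. It read 4143, 4364, 3515 and 4689 in the non-diabetic and 4997, 6696, 6915 and 7158 in the diabetic mice, which do not overlap. It read 4987, 5126, 5808 and 3838 in the non-diabetic RBX and 5825.5, 6423, 6087 and 4107 in the diabetic RBX mice, which overlap. The difference without RBX was 0.62 ± 0.16 (1.54-fold, adjusted p = 0.0665). It passed without non-diabetic RBX 4 (adjusted p = 0.0359) or diabetic 1 (adjusted p = 0.0288).

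Averaged over mice with and without RBX, diabetes changed 0 of the 37 members in limma (against 0.0906% of all genes). At an unadjusted p under 0.05 there were 9 (24.3%, against 9.92% of all genes). Of the 37 differences 30 were above 0, against 47.9% of all genes, with a median of 0.11 beside -0.01 over all genes. The 2 parts of this average differed. Without RBX 21 of 37 were above 0 (median 0.03), against 52.4% of all genes. With RBX 30 of 37 were above 0 (median 0.23), against 44.5%, in the comparison that uses the non-diabetic RBX arrays. The smallest adjusted p was that of Postn (0.44 ± 0.10, adjusted p = 0.187), which passed without diabetic RBX 4 (adjusted p = 0.0329) and in no other fit that left out 1 array. Averaged over diabetic and non-diabetic mice, RBX changed 9 members (24.3%, against 19.9% of all genes). The 3 that rose (against 9.41%) were Fmod, Col4a1 and Col1a2, and the 6 that fell (against 10.5%) were Vcan, Tnc, Lox, Col4a5, Postn and Col4a2. For 5 of these 6, Vcan, Tnc, Lox, Col4a5 and Postn, the differences within diabetic mice were -0.19, -0.21, -0.03, 0.18 and 0.09, and none passed. The averaged call of Col4a2 (-0.30 ± 0.10, adjusted p = 0.0357) was lost when any 1 of 10 arrays was left out: non-diabetic 1 or 2, non-diabetic RBX 1 or 4, diabetic 2, 3 or 4, or diabetic RBX 1, 3 or 4 (adjusted p from 0.0507 to 0.079).

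Mice of the same group differed from each other by very different amounts from gene to gene. The pooled within-group SD of the log2 signal was 0.119 for Col4a1, 0.134 for Bgn and 0.143 for Col1a2, but 0.502 for Thbs1 and 0.552 for Col12a1. The median was 0.261 over the 37 members and 0.236 over all genes. Under RBX in diabetic mice neither the difference of Thbs1 (-0.82 ± 0.30, adjusted p = 0.412) nor that of Col4a1 (0.37, adjusted p = 0.211) passed in limma.

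Many members had more than 1 probe set above the minimum signal, which gives another measurement of the same gene. For RBX in non-diabetic mice, 8 of the 13 members called had 14 such further probe sets. In 11 of the 14 the direction was that of the first, and 11 passed the threshold in the same direction when every probe set was tested apart. All further probe sets of 6 of the 8 genes moved in the same direction. Lox gave -1.10 beside -1.12, Tnc -1.42 beside -1.32, and Vcan -1.49 and -2.40 beside -1.53. Col4a5 gave -1.11 beside -1.30, Col18a1 -1.11 beside -0.77, and Fmod 1.03 to 1.5 in 5 further probe sets beside 1.15. The Vcan probe set at -2.40 was uneven, at 1300.7, 107.5, 1837.8 and 84.5 in the non-diabetic RBX mice. Of these, 107.5 and 84.5 lie below the minimum signal of 381.5. The value of 1837.8 lies within the range of the non-diabetic mice (1678.3, 2323.8, 1674.5 and 2602.4). The exceptions in direction were both collagens that rose. Col1a2 gave -0.01 and -0.53 beside 0.37, and Col4a1 gave -0.41 ± 0.13 (adjusted p = 0.0305) beside 0.26. For Postn, Col4a2, Col6a3, Col16a1 and Loxl3 no further probe set lay above the minimum. For the interaction, 6 of the 9 members called had 11 further probe sets. All 11 had the direction of the first, and 6 passed, those of Tnc and Lox not among them. For diabetes with RBX, 4 of the 5 called had 5 further probe sets. All 5 had the direction of the first, and 3 passed, that of Tnc not among them. The call of Tnc there was also lost on the mean of its probe sets.

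On the probe sets used, 17 of the 37 members lay in the brightest 5% of all genes tested. In the brightest 1% lay 7 members, Fn1 and Col3a1 among them. The part of this brightness in the results was not tested. The ratio of the dimmest to the brightest probe set of a gene was tested for the 26 members with at least 2. It changed in 3 of the 26 for RBX in non-diabetic mice, against 7.12% of 4885 genes, and these genes were singled out after their values were seen. The first was Fn1, whose brightest probe set differed by -0.20 ± 0.14. Its dimmer probe set read 9413, 11196, 9908.5 and 9422 in the non-diabetic and 3073, 4436, 6202 and 2510 in the non-diabetic RBX mice, with no overlap. That is a difference of -1.38 ± 0.21 (adjusted p = 0.000165) and a change in ratio of -1.18 ± 0.20 (adjusted p = 0.00404). In the diabetic mice it read 5697, 8220, 7511 and 9381.5, and in the diabetic RBX mice 6986, 8510, 6760 and 5358.

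Col3a1, a fibril-forming chain, showed 0.02 on its brightest and -0.83 ± 0.28 on its dimmer probe set, a change in ratio of -0.85 ± 0.20 (adjusted p = 0.019). Loxl1 showed -0.15 and 0.58 ± 0.13, a change in ratio of 0.73 ± 0.18 (adjusted p = 0.0225). The next 4 ratios did not pass: Thbs1 (0.48 ± 0.15, adjusted p = 0.068), Col4a1 (-0.67 ± 0.22, adjusted p = 0.0717), Col18a1 (-0.34 ± 0.12, adjusted p = 0.0789) and Col5a1 (-0.60 ± 0.21, adjusted p = 0.0945). On the dimmest probe set of each gene, an alternative chosen after seeing the data, 17 members passed for RBX in non-diabetic mice (against 22.0% of all genes), with lower values of Fn1, Col3a1, Col5a1 and Eln and higher values of Col1a1 and Loxl1 among them.

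**Figure D3:**
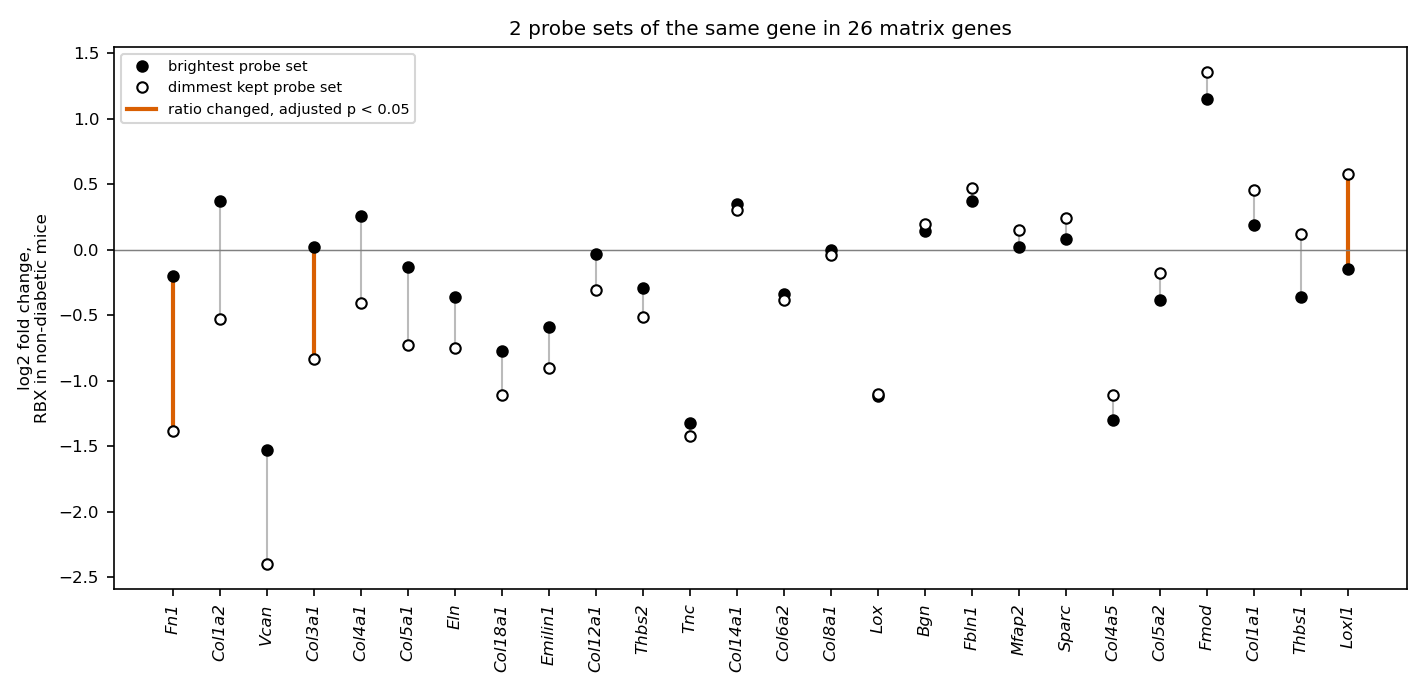
Log2 fold change for RBX in non-diabetic mice (vertical axis) on the brightest (filled) and the dimmest kept (open) probe set of the same gene, for the 26 matrix genes with at least 2 above the minimum, ordered by the difference. Thick orange lines mark Fn1, Col3a1 and Loxl1, whose ratio changed at an adjusted p under 0.05; Lox and Tnc lie almost on top of each other.

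Measures of the arrays differed between the same groups, with overlap in some of them. Actb has control probe sets at both ends of its transcript, and their log2 ratio (3' over 5') grows as RNA is degraded or labelled short. It ran from 0.85 to 1.32 on non-diabetic arrays and from 1.67 to 2.51 on non-diabetic RBX arrays. Diabetic arrays lay between 1.16 and 1.52, and those of diabetic mice given RBX between 1.47 and 1.89, so the RBX groups overlapped. The same ratio of Gapdh overlapped more widely, at 0.00 to 0.25 on non-diabetic, 0.12 to 0.52 on non-diabetic RBX, -0.02 to 0.31 on diabetic and 0.31 to 0.47 on diabetic RBX arrays. The log2 signal of the cre hybridisation control ran from 17.26 to 17.93, 18.24 to 19.14, 17.66 to 18.07 and 18.00 to 18.17 in the same order, with the non-diabetic RBX arrays above all others. The members' deviations from the non-diabetic mean also spread most on the non-diabetic RBX arrays, with an interquartile range of 0.62 to 0.99, against 0.19 to 0.48 on the other 12. This range is drawn from the same values as the fold changes and is not a separate property of the arrays. The non-diabetic arrays enter the mean they are compared with, which lowers their range. Non-diabetic RBX 4, highest on the cre and Actb measures, had 31 of 37 members below the non-diabetic mean, at a median deviation of -0.52. Without it 14 members passed for RBX in non-diabetic mice, 6 higher and 8 lower. The share of all genes in that fit is not given here.

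With the cre signal as a covariate 0 of the 37 members passed for RBX in non-diabetic mice, as did 0 of all 11042 genes; the 2 groups do not overlap in that signal. The estimates under that covariate stayed near their size for Lox (-1.22 ± 0.34), Tnc (-1.46 ± 0.40), Vcan (-1.20 ± 0.37), Postn (-0.94 ± 0.29) and Fmod (1.24 ± 0.41). They shrank for Col18a1 (-0.03 ± 0.24), Col4a5 (-0.37 ± 0.24), Col4a2 (-0.26 ± 0.27) and Col6a3 (-0.35 ± 0.45). With the Actb ratio as a covariate Tnc alone passed (-1.52 ± 0.37, adjusted p = 0.0471), beside 174 of all genes, and Vcan stood at -1.42 ± 0.36 (adjusted p = 0.0548), Col4a5 at -1.14 ± 0.32, Postn at -0.98 ± 0.28 and Lox at -0.80 ± 0.31. Under that covariate the estimates of Fmod (0.51 ± 0.34, from 1.15), Col16a1 (0.24 ± 0.32, from 0.63), Col18a1 (-0.44 ± 0.28, from -0.77), Col4a2 (-0.25 ± 0.25, from -0.62) and Loxl3 (-0.07 ± 0.25) shrank. Between the RBX groups all 5 members called kept their call with the Actb ratio, and Postn alone with the cre signal (0.96 ± 0.19, adjusted p = 0.0392). The part of these array measures in the results was not tested beyond these fits.

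**Figure D4:**
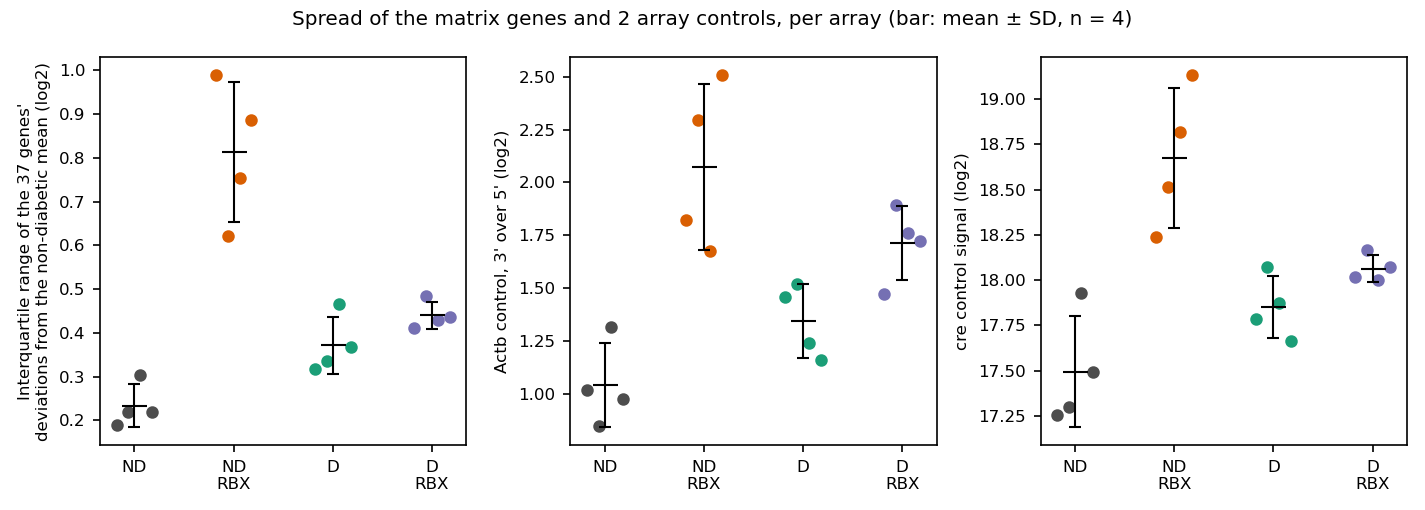
Per-array values by group (points, with mean and SD of 4 arrays; ND non-diabetic, D diabetic): the interquartile range of the 37 genes' log2 deviations from the non-diabetic mean, the log2 Actb control ratio (3' over 5'), and the log2 cre control signal. The non-diabetic RBX arrays are highest in the first panel, at 0.62 to 0.99, and do not overlap the non-diabetic arrays in any panel. The first panel is drawn from the same values as the fold changes, and the non-diabetic arrays enter the mean used there.

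Markers of the cells that make or surround the matrix moved in the same comparison. With RBX in non-diabetic mice 16.5% of all genes tested rose and 15.1% fell. Of 10 smooth muscle markers, 7 fell and 1 rose with RBX in non-diabetic mice, at a median of -1.02. Their summed signal ran from 489861 to 535196 in non-diabetic and 316310 to 499394 in non-diabetic RBX mice, and from 407627 to 498836 in diabetic mice and 515002 to 565506 in those given RBX. Of 9 adventitial fibroblast markers measured, 4 rose (median 0.44), with sums of 204489 to 250594, 296447 to 456596, 209908 to 278716 and 300379 to 315546 in that order. Of 10 endothelial markers 8 rose (median 0.67), with sums of 31618 to 38602, 48581 to 61710, 35233 to 58104 and 38830 to 50488. Of 10 macrophage markers 7 rose (median 0.61), with sums of 225902 to 335449, 306751 to 464296, 264051 to 367467 and 320747 to 324744. Among the other lists 2 of 5 white adipocyte, 1 of 6 brown adipocyte and 1 of 1 lymphocyte markers measured rose, 1 of 4 cardiac and skeletal muscle markers fell, and 0 of 3 cartilage markers passed in limma, with 1 at an unadjusted p under 0.05. Between the RBX groups 7 of 10 smooth muscle markers were higher with diabetes (median 0.83), against 4.44% of all genes. Of 9 fibroblast markers 2 were lower, against 2.66% of all genes. No marker was at 0, and the part of these markers in the results was not tested.

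The genes that process collagen after it is made moved in both directions. Of 21 measured, 5 rose (against 16.5% of all genes) and 6 fell (against 15.1%) with RBX in non-diabetic mice. The falls included P3h2, a prolyl 3-hydroxylase that acts on basement membrane collagen (-1.39 ± 0.20, adjusted p = 7.68e-05), P4ha2, a subunit of the prolyl hydroxylase that stabilises collagen (-0.87 ± 0.15, adjusted p = 0.000332), and Plod2, the lysyl hydroxylase of collagen telopeptides (-0.74 ± 0.13, adjusted p = 0.000473). Pcolce2, an enhancer of procollagen cleavage, rose (0.95 ± 0.15, adjusted p = 0.000149). P3h2 was also the 1 gene of this list lower with diabetes without RBX (-1.12 ± 0.20, adjusted p = 0.0173). Between the RBX groups Plod2 was higher with diabetes (0.64 ± 0.13, adjusted p = 0.0069).

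Of 14 further elastic fibre and microfibril genes measured, 6 rose (against 16.5% of all genes) and 1 fell (against 15.1%) with RBX in non-diabetic mice. The fall was Ltbp1, which anchors latent TGF-beta to microfibrils (-1.63 ± 0.18, adjusted p = 7.23e-06), and the rises included the endothelial Mmrn2 (0.78 ± 0.15), Emilin2 (0.73 ± 0.16) and the fibulin Efemp1 (0.63 ± 0.14). Ltbp1 was higher in diabetic RBX than in non-diabetic RBX mice (0.94 ± 0.18, adjusted p = 0.00379).

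Of 22 further proteoglycan and matricellular genes, 5 rose (against 16.5% of all genes) and 5 fell (against 15.1%) with RBX in non-diabetic mice. Tgfbi, a collagen-binding protein induced by TGF-beta, rose (1.05 ± 0.10, adjusted p = 2.55e-06), while Ccn3 (-1.36 ± 0.17, adjusted p = 2.02e-05), Sparcl1 (-1.36 ± 0.21, adjusted p = 0.000121) and Ccn2, connective tissue growth factor (-1.0 ± 0.22, adjusted p = 0.00282), fell. Between the RBX groups 4 were higher with diabetes (against 4.44% of all genes), Ccn3 at 0.97 and Sparcl1 at 0.86 among them. Tgfbi was lower (-0.67 ± 0.10), against 2.66% of all genes. Of 11 basement membrane glycoproteins 4 fell, among them the laminin chains Lama4 (-0.55 ± 0.11) and Lamb2 (-0.59 ± 0.14) and the heparan sulfate proteoglycan Agrn (-0.47 ± 0.16). The laminin chain Lamb1 rose (0.80 ± 0.13, adjusted p = 0.000177) and was also higher with diabetes without RBX (0.58 ± 0.13, adjusted p = 0.0444). Of 7 other collagens measured, Col4a4 (0.89 ± 0.17) and Col27a1 (0.81 ± 0.15) rose, and Col4a6 (-0.84 ± 0.16), the chain gene next to Col4a5, and Col19a1 (-1.06 ± 0.30) fell. With RBX in diabetic mice 0 of the 75 genes of these 5 lists passed in limma, against 0.0453% of all genes. An unadjusted p under 0.05 was reached by 7 of the 75, against 9.18% of all genes.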

How the data were processed

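Whole-aorta RNA of 16 mice was measured on 1 array each. Per the submitters' processing notes, the authors made the signals with MAS5; no version or setting is known from these notes. As deposited, the intensity values are linear, at a trimmed mean of 1500.01 on every array (2% trimmed at each end), with a lowest value of 0.7. Gene names came from GEO's platform annotation: of 45101 probe sets, 34958 had 1 symbol, 932 several and 9211 none here. An Entrez match in RefSeq (GRCm38.p6) was found for 99.4% of the first.

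Values were taken to log2. Probe sets whose mean lay above the median (a signal of 381.5) were kept, and each gene's brightest kept probe set was used, 11042 genes in all. Differences were tested in limma 3.58.1 (R 4.3.3) on all 16 arrays with 4 group means and an intensity trend, two-sided, with Benjamini-Hochberg adjustment over all genes at 0.05. "Rose" and "fell" refer to calls at that threshold. Changes are log2 fold changes ± SE, levels mean ± SD. The scripts were tested on simulated data. With 4 arrays a group, their number limits the precision.

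The members, their 6 roles, the gene lists and the naming rule were chosen with earlier results of these data known. The rule named every member and gave values by mouse for the 2 called members of smallest p in each role, or the member of smallest p where none was called; from each further list it took up to 4 called genes per comparison. Other genes singled out were chosen after their values were seen. Replicate numbers did not pair the mice: 2 of 24 same-numbered pairs of arrays correlated above 0.1 in their deviations from the group means. Alternatives covered scaling, filters, an offset, probe set choice, variance models, array weights, a replicate block, covariates for 2 array controls, the 2 groups alone, and each array left out.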

Additional observations from a re-analysis of the deposited data

Results flagged for a closer look

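The effect of RBX on 9 matrix genes differed between diabetic and non-diabetic mice by the interaction test (change in diabetic minus change in non-diabetic mice, log2, limma, adjusted p under 0.05). The difference was 1.48 ± 0.23 for Col4a5 (adjusted p = 0.000702), 1.34 ± 0.26 for Vcan (0.00302), 1.11 ± 0.26 for Tnc (0.0121), 1.10 ± 0.20 for Postn (0.00219) and 1.09 ± 0.23 for Lox (0.00541). It was 1.06 ± 0.21 for Col18a1 (0.00362), 0.65 ± 0.19 for Col4a2 (0.0345), -0.87 ± 0.24 for Col16a1 (0.0259) and -0.91 ± 0.27 for Fmod (0.0373). The non-diabetic RBX arrays, which were above all others on the cre control and overlapped the diabetic RBX arrays on the Actb ratio, enter each of these values. On the dimmest probe set of each gene the interaction calls of Tnc, Vcan, Lox, Col4a2 and Fmod were lost. That of Tnc was lost on the mean of its probe sets too, and its lowest value over the alternatives was 0.62.

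Vcan was far higher in non-diabetic 4 (13012.5) than in the other 3 mice of its group, past Dixon's criterion. This was 1 of 56 groups tested for such a value, and chance alone marks about 1 in 20.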

How the results depend on the processing

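The counts of members called depended most on the array-control covariates. With the cre signal they were 0 for RBX in non-diabetic mice, 1 for diabetes with RBX (Postn), 0 for the interaction and 0 for RBX averaged. With the Actb ratio they were 1 (Tnc) for RBX in non-diabetic mice, 3 for the interaction and 0 for RBX averaged. Other counts moved by over 1.5 times in few settings. Diabetes without RBX gave 1 after quantile normalization (Col18a1), 4 with array weights (Col18a1, Col4a2, Col4a5 and Fbln2; 10.8% of members, against 10.9% of all genes there) and 2 in a fit of the 2 groups alone (Col18a1 and Fbln2, against 1.89%). Diabetes with RBX gave 8 with every probe set apart, the interaction 5 on the dimmest probe set (against 5.64%), and RBX averaged 15 after quantile normalization (against 18.7%), 2 higher and 13 lower. With each array left out in turn the counts ran from 0 to 2 for diabetes without RBX, 11 to 14 for RBX in non-diabetic mice, 5 to 8 for diabetes with RBX (8 without non-diabetic RBX 3), 6 to 10 for the interaction, 0 to 1 for diabetes averaged and 8 to 13 for RBX averaged, and stayed at 0 for RBX in diabetic mice. Where no share of all genes stands beside a count, a shift in the members alone cannot be read from it. The cause of these shifts was not tested.

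For RBX in non-diabetic mice Col1a2 turned to -0.03 after quantile normalization, -0.06 on the mean of its probe sets and -0.53 on the dimmest, and Col4a1 to -0.07 and -0.41 on the mean and the dimmest. For RBX averaged Col1a2 turned to -0.05 and -0.41 in those settings, and Col4a1 to -0.25 on the dimmest. Over the 37 named differences and 1129 alternatives, 982 kept direction and side of the threshold, 135 lost the call, 4 gained it and 8 reversed. With the replicate number as a replicate block 14 members passed for RBX in non-diabetic mice, 6 for diabetes with RBX, 10 for the interaction and 11 for RBX averaged, and 0 in the other comparisons. No share of all genes stands beside these counts, so a shift in the members alone cannot be read from them. In 5 of 24 pairings an array correlated best with its own number. Scaling moved the median of all genes by under 0.1.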
